A study of Mus musculus with 8 samples.

Results

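mmu-miR-1983, mmu-miR-3535 and mmu-miR-6240 (miR-1983, miR-3535 and miR-6240 from here on) are 3 of the 697 mature mouse miRNAs counted in small RNA libraries of isolated cardiomyocytes, the contractile cells of the heart muscle. They were selected on their fitted difference between the groups, which was among the most extreme of the tested miRNAs, so the group difference itself is given here as a description without a test. Their annotation, their folds and their spread within groups are the measures the choice did not use, although choosing extreme differences favours a wide spread. All 3 had a mean count above 100 over the 8 libraries, as did 223 of the 697 entries, and none of the 3 carries a 5p or 3p arm in its name, as is the case for 50 of the 697 entries, the 3 included.

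The libraries came from 4 mice with transverse aortic constriction (TAC), in which a ligature narrows the aortic arch and loads the left ventricle with pressure, and from 4 mice with a sham operation. The animals were male, were operated on at 2 months of age and were studied 14 weeks after surgery, when the study describes the TAC hearts as failing. Myocytes were released by perfusing the heart with enzyme, and each library was made from 1 µg of total RNA; the strain is not given in the sources used here. The 4 samples of a group are labelled as separate samples of 1 cell type, and the counts of any 2 libraries differed by far more than sampling noise.

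A canonical miRNA is cut from 1 arm of a short hairpin, first by Drosha in the nucleus and then by Dicer in the cytoplasm, and is held by an Argonaute protein that it guides to target messages through its seed. Several entries of the miRNA catalogue have another origin on record or another RNA at the same place: pieces of transfer RNA (tRNA), which carries amino acids to the ribosome, of small nucleolar RNA (snoRNA), which guides chemical changes on ribosomal RNA, and of ribosomal RNA itself. Such pieces are abundant in total RNA, and a small RNA library takes up any RNA of the right length. A count on such an entry does not by itself tell a miRNA from a piece of the other RNA.

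The mature sequences are shown 5′ to 3′ as RefSeq gives them on GRCm38.p6, because the overlaps described next are read from them, and the capitals mark the seed, bases 2 to 8:
miR-1983: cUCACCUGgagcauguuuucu
miR-3535: uGGAUAUGaugacugauuaccugaga
miR-6240: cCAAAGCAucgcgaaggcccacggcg
miR-1983 has 21 bases and lies at chr13:21896930-21896950 on the minus strand. miR-3535 has 26 bases and lies at chr1:86352062-86352087 on the minus strand. miR-6240 has 26 bases and lies at chr5:114851973-114851998 on the plus strand. Among the 189 other tested miRNAs with a sequence, the median length was 22 bases, the range was 19 to 26, and 1 reached 26 bases, so miR-3535 and miR-6240 stand at the long end. The seeds of miR-1983 and miR-3535 occur in no other counted entry that has a RefSeq sequence, and that of miR-6240 occurs in miR-330-3p alone.

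The miR-1983 hairpin contains a complete tRNA gene. RefSeq places n-TItat14, a nuclear tRNA gene for isoleucine with the anticodon TAT, at chr13:21896938-21897031, which is bases 19 to 112 of the 132-base hairpin. The hairpin is shown with those 94 bases in capitals, followed by the mature sequence with its part inside the tRNA in capitals:
miR-1983 hairpin: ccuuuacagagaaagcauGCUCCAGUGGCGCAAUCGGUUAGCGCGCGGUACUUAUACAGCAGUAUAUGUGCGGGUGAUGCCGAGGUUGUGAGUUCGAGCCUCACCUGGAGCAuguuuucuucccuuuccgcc
miR-1983 mature: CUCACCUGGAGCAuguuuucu
The gene table gives the tRNA no strand, but read on the strand of miR-1983 its first 7 bases pair in 7 of 7 positions with the 7 bases before its final A, as in the acceptor stem of a tRNA, whose last encoded base is unpaired, and it holds the GUUCGAG run of a tRNA arm. Of the 21 bases of miR-1983, the first 13 are the 3′ end of the tRNA and the last 8 lie past it. The first run of 4 U starts at base 3 past the tRNA end, within the mature sequence; RNA polymerase III, which transcribes tRNA genes, stops at such runs, and the trailer up to the stop is normally removed by RNase Z. The nearest other annotated gene, the pseudogene Gm11279, lies 6206 bp away.

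The miR-3535 sequence is the 5′ end of a snoRNA. It covers bases 1 to 26 of Gm24148, an 80-base snoRNA at chr1:86352008-86352087 on the minus strand, and begins at the same base. The snoRNA lies in an intron of Ncl (chr1:86344719-86359400, minus strand), which encodes nucleolin, an abundant protein of the nucleolus; 1 transcript of Ncl annotated as a retained intron was left out of this placement. The snoRNA is shown as DNA with the part that is miR-3535 in capitals:
Gm24148: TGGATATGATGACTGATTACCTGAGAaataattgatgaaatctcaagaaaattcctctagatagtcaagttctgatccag
Box C/D snoRNAs carry a TGATGA near the 5′ end and a CTGA near the 3′ end, the places where their proteins assemble. Searched on the strand of the snoRNA, TGATGA starts at bases 7 and 33 of Gm24148, the first of them inside miR-3535, and CTGA starts at bases 13, 21 and 72. Of the 1507 annotated mouse snoRNAs, 20.6% hold TGATGA within their first 15 bases and 31.4% hold CTGA within their last 15 bases.

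No other RNA was found under miR-6240. Its only overlap in the annotation was its own 117-base hairpin, which is intergenic, with 4930519G04Rik the nearest gene at 1666 bp, and its sequence was not found exactly in any of the 3910 structural transcripts searched. The large ribosomal RNAs were not among them, so the question whether miR-6240 shares sequence with ribosomal RNA was not tested. The map of the 3 loci shows these arrangements to scale.

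**Figure D1:**
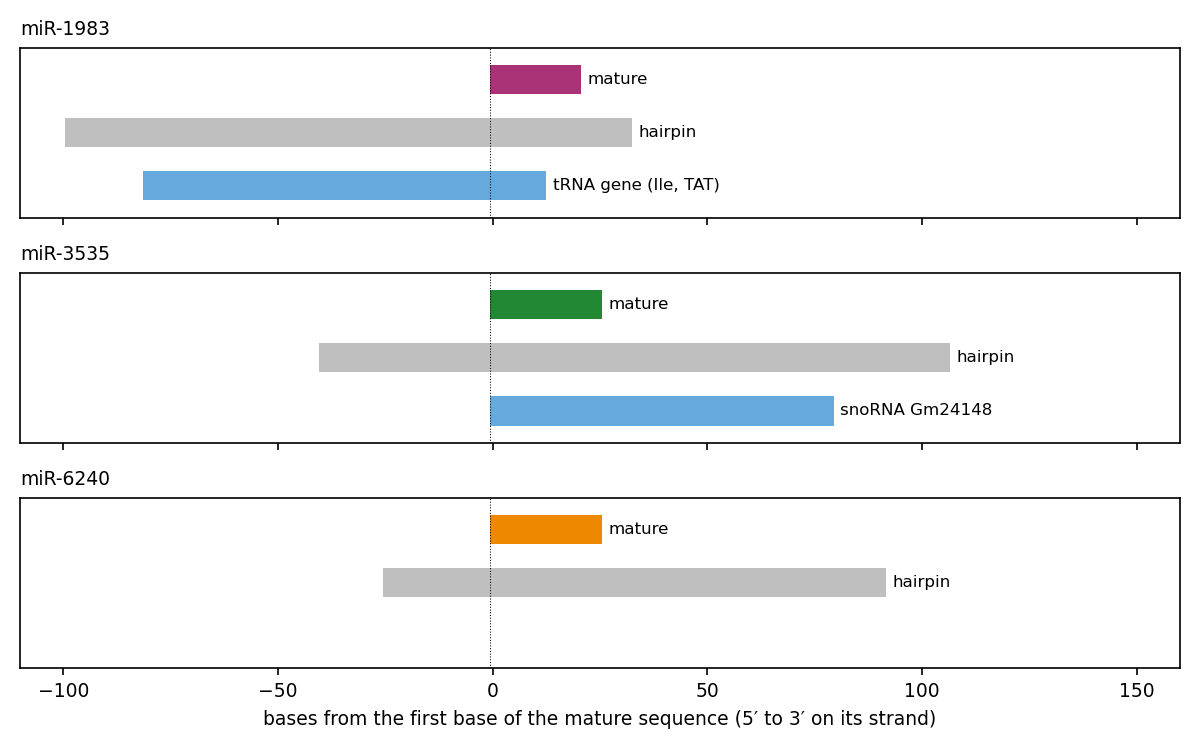
Positions of the mature sequence, the annotated hairpin and the overlapping RNA gene for miR-1983, miR-3535 and miR-6240, in bases from the first base of the mature sequence, 5′ to 3′ on its own strand. The first 13 bases of miR-1983 lie inside the tRNA gene, and miR-3535 starts with the snoRNA. For miR-6240 only its hairpin was found, in a search that did not include the large ribosomal RNAs.

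In their folds the hairpins were in part like those of other miRNAs and in part not. All 3 mature sequences lay on 1 arm, as in 176 of 178 other tested miRNAs with a hairpin, and none paired with itself, as in 177 of the 178. The hairpins were long, however. Their lengths were 132, 147 and 117 bases for miR-1983, miR-3535 and miR-6240, whereas those of the 178 ran from 62 to 121 bases with a median of 85. None of those 178 was as long as that of miR-1983 or miR-3535, and 2 were at least as long as that of miR-6240. The hairpin of miR-3535 was taken from GENCODE vM21 and all the others from RefSeq, so its length is compared across 2 annotations. In the structure of lowest energy computed with RNAfold, 20 of the 21 bases of miR-1983 were paired (95.2%), a share that 23 of the 178 reached. The longest unbroken helix of that hairpin had 17 bp, and 19 of the 178 reached it. By this measure the miR-1983 hairpin is a well-paired one. However, the first 13 of those 21 bases are also the 3′ end of the tRNA, with a strand of its acceptor stem. How much of the pairing is that of the tRNA itself was not determined. For miR-3535, 20 of 26 bases were paired (76.9%), with a longest helix of 9 bp, values reached by 156 and 134 of the 178, so apart from its length this hairpin lay within their range. For miR-6240, 19 of 26 bases were paired (73.1%), and its longest helix of 5 bp was shorter than that of each of the 178, whose shortest was 6 bp. The minimum free energies were -52.7, -38.3 and -24.7 kcal/mol, against a median of -37.4. The other arm of a hairpin is often counted as well: 171 of the 214 tested entries named by arm had their other arm among the 697. The 3 entries have no partner by name among the 697, so a second arm could not have been counted for them.

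In the libraries, miR-1983 was counted 111, 125, 161 and 136 times in the 4 Sham samples and 580, 428, 415 and 319 times in the 4 TAC samples. Every TAC library was above every Sham library, with TAC 1 highest. miR-3535 was counted 198, 204, 158 and 224 times in Sham and 74, 90, 45 and 82 times in TAC. For this entry on a snoRNA each TAC library was below each Sham library. miR-6240 was counted 1843, 764, 800 and 544 times in Sham and 302, 199, 529 and 145 times in TAC. The groups did not overlap here either, but Sham 4 and TAC 3 lay close together and Sham 1 far above the rest. Over all 8 libraries the 3 entries held 2275, 1075 and 5126 counts and ranked 169, 211 and 123 of the 697. Of the 223 tested miRNAs, 17.0% had every TAC count above every Sham count and 2.24% had every TAC count below. These shares, and those given below for other scales, include the 3 entries themselves, which were chosen for this contrast.

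These counts must be read against the size of the libraries, since the TAC libraries hold more miRNA. The summed miRNA counts per library ran from 4005668 to 5392576 in Sham and from 5507169 to 7798943 in TAC. They equalled 38.2 to 44.25% of the clean tags in Sham and 42.28 to 55.13% in TAC (clean tags are the reads left after the authors' cleaning). Some tags appear to be counted on 2 entries: miR-486a-5p and miR-486b-5p had 119333 and 118920 counts in Sham 1 and near-equal counts in each library. The share of tags on a miRNA may therefore be lower, by an amount that was not determined. Counts of 5 cardiomyocyte marker miRNAs, all present in each library, took 16.1 to 19.8% of the total in Sham and 19.4 to 24.6% in TAC. The 2 endothelial markers took 4.92 to 7.21% and 2.93 to 3.46%. The 3 erythroid markers took 0.0418 to 0.15% and 0.00438 to 0.055%. The 4 smooth muscle and fibroblast markers took 3.76 to 4.46% and 3.4 to 3.85%, and the 5 leukocyte markers 0.131 to 0.245% and 0.105 to 0.145%; no marker was at 0 in a library. The part of these shifts in the values below was not tested, and in bulk samples fewer cells of a type and less RNA per cell cannot be told apart.

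Per 1000000 miRNA counts (CPM by miRNA total), miR-1983 stood at 24.0, 23.2, 32.8 and 34.0 in Sham and at 105, 54.9, 65.5 and 44.2 in TAC. The means were 28.5 ± 5.69 CPM in Sham and 67.5 ± 26.7 CPM in TAC (SD, n = 4 each), 2.37-fold higher in TAC, and the larger SD in TAC came with TAC 1. miR-3535 stood at 42.8, 37.8, 32.2 and 55.9 CPM in Sham and at 13.4, 11.5, 7.1 and 11.4 in TAC. Its means were 42.2 ± 10.1 and 10.9 ± 2.68 CPM, so Sham was 3.89-fold over TAC, and the lowest value, TAC 3 with 45 counts, has a 95% Wilson interval of 5.3 to 9.5 CPM. miR-6240 stood at 398, 142, 163 and 136 CPM in Sham and at 54.8, 25.5, 83.4 and 20.1 in TAC. Its means were 210 ± 126 and 46.0 ± 29.3 CPM, 4.56-fold higher in Sham, with a wide SD in both groups. Counting alone gives a relative error of 2.33 to 14.9% for a single value of the 3 entries, so most of the scatter is not counting error, and the intervals cover counting error only. On this scale, 3.59% of the tested miRNAs had all TAC values above all Sham values and 27.4% had all below.

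**Figure D2:**
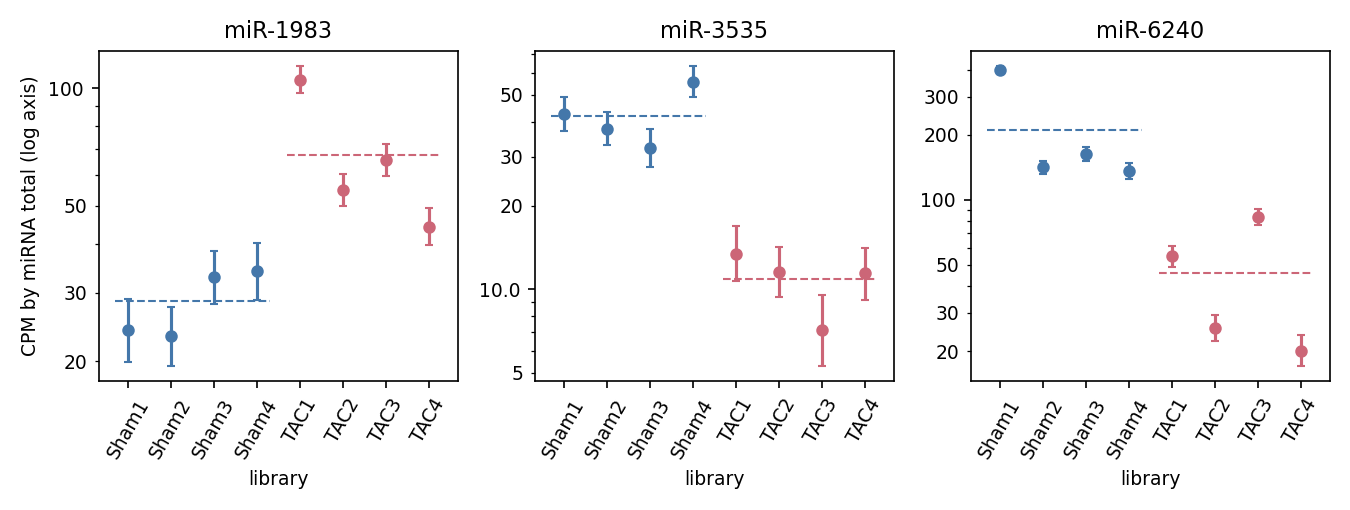
CPM by miRNA total of miR-1983, miR-3535 and miR-6240 in the 4 Sham (blue) and 4 TAC (red) libraries on log axes; bars are 95% Wilson intervals of the counts and dashed lines are group means. TAC lies above Sham for miR-1983 and below it for the other two, and miR-6240 is at 398 in Sham 1 against 136 to 163 in the other Sham libraries.

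The choice of denominator moved the size of each difference but not its direction. Scaling to the reference pair of the study, miR-19b-3p and miR-126a-3p, was done here with 1 common factor on the TAC values. The study does not say whether it used a common factor. This factor shifts every log2 difference up by 0.898 relative to the miRNA total. miR-126a-3p is also 1 of the 2 endothelial markers above, whose share was lower in every TAC library. On this reference scale the TAC values of miR-1983 were 196, 102, 122 and 82.3, and the mean was 4.41-fold that of Sham. The TAC values of miR-3535 were 25.0, 21.5, 13.2 and 21.1, and Sham was 2.09-fold over TAC. Both entries kept their groups apart. The TAC values of miR-6240 were 102, 47.5, 155 and 37.4, which overlap the Sham range of 136 to 398, and Sham was 2.45-fold over TAC. Of the tested miRNAs, 54.7% had all TAC values above Sham on this scale. Only 1 miRNA (0.448%) had all below, and it is miR-3535 itself.

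Clean tags not on a miRNA were taken as the clean tags minus the summed miRNA counts, and stand for the rest of the library. A tag counted on 2 entries is subtracted more than once, so this denominator may be too low, and not equally in every library. Per 1000000 clean tags not on a miRNA, miR-1983 stood at 14.8, 14.7, 21.7 and 27.0 in Sham. In TAC it stood at 77.2, 65.6, 72.2 and 54.3, a 3.44-fold difference in the means. The 4 TAC libraries were closer together here than on the miRNA total, with a highest-to-lowest ratio of 1.42 against 2.38. miR-3535 stood at 26.4, 24.1, 21.3 and 44.4 in Sham and at 9.84, 13.8, 7.83 and 13.9 in TAC, 2.56-fold higher in Sham. miR-6240 stood at 246, 90.1, 108 and 108 in Sham and at 40.2, 30.5, 92.1 and 24.7 in TAC, 2.95-fold higher in Sham, and TAC 3 was above Sham 2. On this scale 22.4% of the tested miRNAs had all TAC values above Sham and 1.79% all below. Per 1000000 of all clean tags the folds lay between, at 2.88, 3.13 and 3.61, and the groups of all 3 entries were apart, as were 15.7% of the tested miRNAs with TAC above and 7.62% with TAC below.

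In the edgeR fit with the reference scale, the log2 difference of miR-1983 was 2.14 (SE 0.286), and miR-205-5p, at 2.40, was the one tested miRNA above it. The next below it were miR-200b-3p at 1.85 and miR-200c-3p at 1.83, both of the miR-200 family known from epithelial cells. These 3 values rest on TAC 4, where miR-205-5p had 2819 counts against 222 to 412 in the other TAC libraries. Without TAC 4 they were 0.96, 0.82 and 0.82, and miR-1983, at 2.35, was the highest of the tested miRNAs. Without TAC 1 miR-1983 was at 1.84 and ranked 6. miR-6240 was lowest of the 223 at -1.29 (SE 0.498) and miR-3535 next at -1.06 (SE 0.257), followed by miR-381-3p at -0.81 and the erythroid miR-144-3p at -0.70. miR-381-3p had 781 counts in Sham 2 against 80 to 155 in the other Sham libraries, and without Sham 2 it was at 0.23. miR-144-3p had 134 counts in TAC 1 against 1098 to 2647 in the other TAC libraries, and without TAC 1 it was at -0.33. The median of the 223 was 0.61. Without Sham 1 the difference of miR-6240 was -0.66 and ranked 5 from the lowest, so that library moves the value by more than 1.5 times, and without TAC 3 it was -1.77. The differences of miR-1983 and miR-3535 stayed between 1.84 and 2.35 and between -1.25 and -0.86 when single libraries were left out. The plot of the fitted differences under 5 scalings shows the 3 entries and the median of all tested miRNAs moving up together from the miRNA total to the reference miRNAs.

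**Figure D3:**
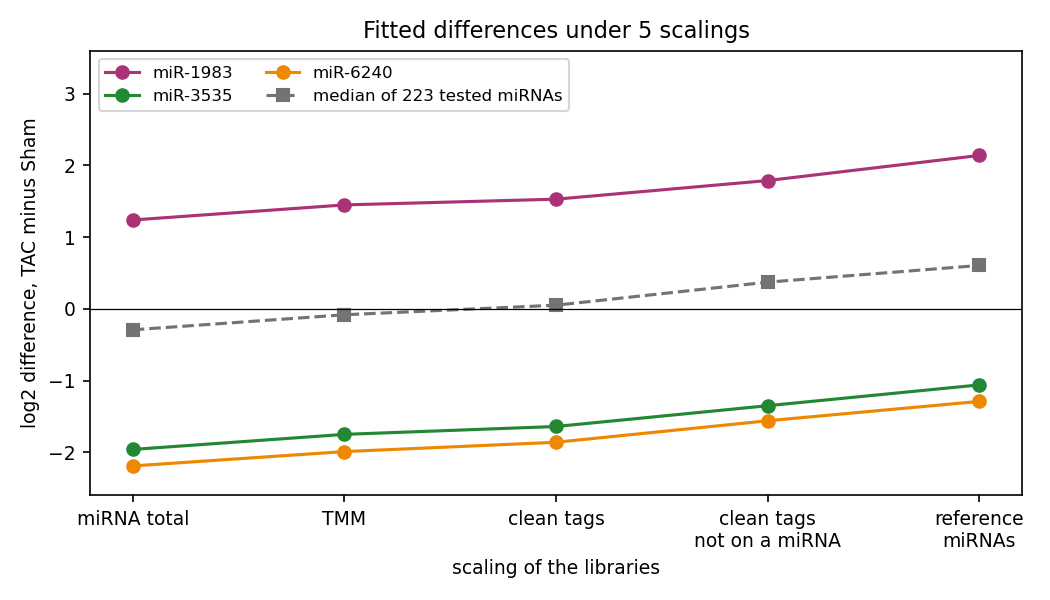
Fitted log2 difference (TAC minus Sham) of miR-1983, miR-3535 and miR-6240 and the median of the 223 tested miRNAs (grey) under 5 scalings of the libraries. miR-1983 runs from 1.24 to 2.14 and stays positive, miR-3535 from -1.96 to -1.06 and miR-6240 from -2.19 to -1.29, while the median crosses 0.

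How an entry scales with the size of its library can be read within a group, which the choice of the entries did not use directly. Choosing extreme differences over 4 libraries a group does favour entries with a wide spread. For each miRNA, the SD of the log2 values around their group means was computed per denominator over the 8 libraries. The median SD of the 223 tested miRNAs was 0.304 for raw counts and 0.255 after division by the miRNA total. That of miR-1983 was 0.296 for raw counts and 0.429 after division (rank 38 of 223 from the highest). For miR-3535 the values were 0.347 and 0.367 (rank 55), and for miR-6240 they were 0.777 and 0.849 (rank 9). Dividing by the miRNA total therefore lowered the median spread and widened that of all 3 entries, least for miR-3535. Other tested miRNAs widened too, miR-1843b-5p and the cardiomyocyte marker miR-208a-3p among them, and their share was not counted. The widening is therefore not particular to the 3 entries. This is a description over 4 libraries a group with no test. After division by the clean tags not on a miRNA, the SDs of the 3 entries were 0.341, 0.434 and 0.746 against a median of 0.339.

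The 2 groups did not give the same picture for miR-1983. In TAC its SD was 0.353 for counts, 0.533 per miRNA total, 0.365 per clean tag and 0.221 per clean tag not on a miRNA. In Sham the SD was 0.225, 0.29, 0.37 and 0.429 in that order, so the denominator with the smallest spread in TAC had the largest in Sham. edgeR's biological coefficient of variation was 0.294 for miR-1983 and 0.257 for miR-3535, near the 0.291 and 0.294 of the trend at their abundance, and 0.488 for miR-6240 against 0.283. miR-6240 is thus the most variable of the 3 between libraries of a group, and the plot of spread against mean count shows it above most miRNAs of like abundance.

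**Figure D4:**
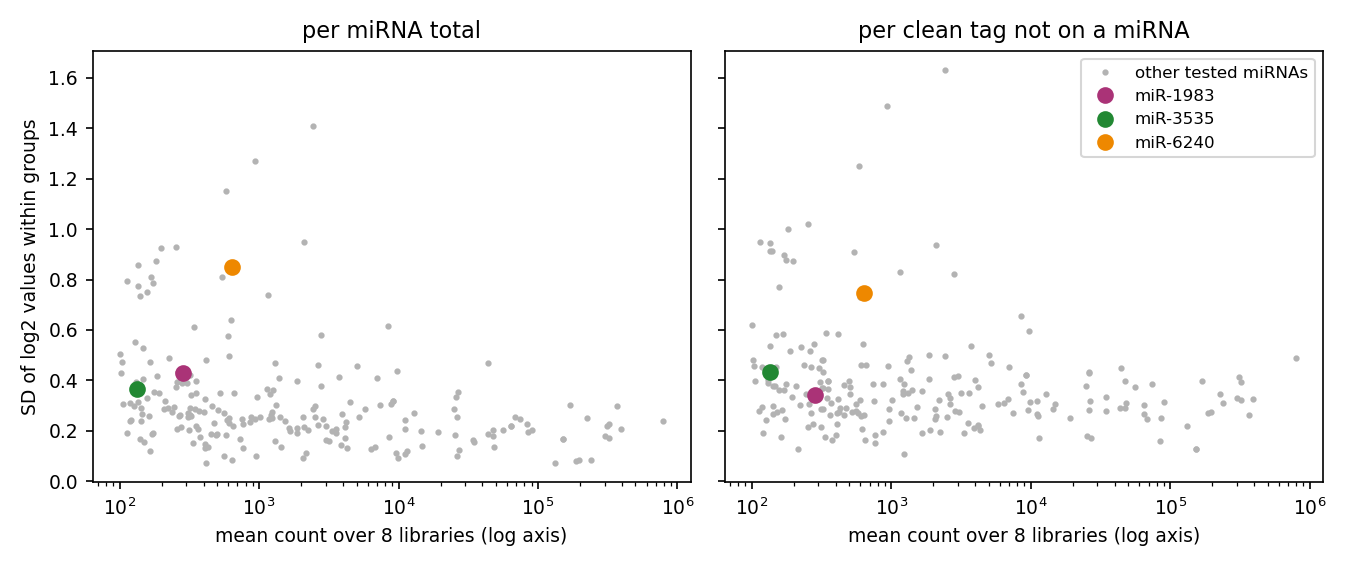
SD of the log2 values within groups against the mean count (log axis) for the 223 tested miRNAs, per miRNA total (left) and per clean tag not on a miRNA (right). miR-6240 is at 0.849 and 0.746, above most of the grey points at its abundance, and miR-1983 moves from 0.429 to 0.341.

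The 3 entries did not follow each other within groups. Over the 8 libraries, Pearson's r of the deviations of log2(CPM + 1) from the group means was 0.22 between miR-1983 and miR-3535, 0.33 between miR-1983 and miR-6240, and -0.34 between miR-3535 and miR-6240. The tested miRNAs whose deviations were most like those of miR-1983 were miR-30c-2-3p (r = 0.90), miR-1843b-5p (0.89) and miR-23b-5p (0.88). For miR-3535 they were miR-30b-3p (0.81), miR-181d-5p (0.80) and miR-874-3p (0.74), and for miR-6240 miR-199b-5p (0.89), miR-24-1-5p (0.87) and miR-221-3p (0.76). By the levels themselves, which include the group difference, the most alike were miR-27b-5p (0.92), miR-28a-5p (0.88) and miR-486b-5p (0.81) for miR-1983, miR-181d-5p (0.95), miR-340-5p (0.94) and miR-30e-5p (0.94) for miR-3535, and miR-199b-5p (0.95), miR-99b-5p (0.91) and miR-450a-5p (0.90) for miR-6240. All these points share the same 8 libraries and their totals, and each name is 1 of the 3 highest among the tested miRNAs.

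Other entries have a structural RNA at the same place, and those tested were above 0 on the reference scale, where miR-3535 was below it. Of the 593 entries with a RefSeq sequence, 20 were found exactly on the sense strand of an annotated structural RNA, miR-3535 among them; of the other 19, 6 had a mean above 100 counts. 4 of the 6 lie on small Cajal body RNAs, the scaRNAs that guide changes on spliceosomal RNA, and the 2 arms of miR-3068 lie on a 136-base snoRNA. In the reference-scaled fit 5 of the 6 were called higher in TAC (adjusted p below 0.05 and fold above 1.7, edgeR) and 0 lower. Of the 223, 36.8% were called higher and 0.897% lower. The 223 include the 3 entries chosen for this contrast, and the lower calls are among those 3. Their median log2 difference was 0.91, against 0.61 over all tested. The largest was that of miR-1843b-3p on Scarna3a at 1.55 (adjusted p = 0.0108, edgeR), with 19 counts in Sham 1 against 98 to 112 in the other Sham libraries, followed by miR-1843b-5p at 1.08 (adjusted p = 0.00221). miR-1843a-5p on Scarna3b was at 0.98 (adjusted p = 0.00297). Since miR-1843a and miR-1843b are paralogs, shared reads may be split between them or counted on both, so their calls may not be independent. miR-1839-5p was at 0.84 (adjusted p = 0.0048) and miR-3068-3p at 0.78 (adjusted p = 0.00671), while miR-3068-5p at 0.62 (adjusted p = 0.0314) was under the fold threshold. By TMM 0 of the 6 were called, with 1.35% of all tested called higher and 4.48% lower. By miRNA totals, too, 0 were called (0.448% and 10.3% of all tested), and by clean tags 0 (2.24% in each direction). By clean tags not on a miRNA 1 of the 6 was called higher, where 14.3% of all tested were called higher and 0.897% lower, so the calls rest on the scaling. The direction did so too for 3 of the 6: by miRNA totals miR-3068-5p was at -0.27, miR-3068-3p at -0.11 and miR-1839-5p at -0.05.

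A closer relation to miR-3535 is held by 2 entries on box C/D snoRNAs, both under the mean of 100 counts and named after their values were seen. UGAUGA occurs within the first 15 bases of 4 of the 593 mature sequences (0.675%), and 3 of the 4 start within the first 3 bases of a snoRNA. They are shown with UGAUGA in capitals:
miR-3535: uggauaUGAUGAcugauuaccugaga
miR-5121: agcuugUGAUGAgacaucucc
miR-677-5p: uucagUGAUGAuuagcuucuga
miR-5121 covers bases 3 to 23 of the 84-base Snord33 and miR-677-5p covers bases 3 to 24 of a 72-base snoRNA. miR-5121 was counted 18, 108, 30 and 9 times in Sham and 1, 17, 19 and 14 times in TAC, with overlapping groups. miR-677-5p was counted 27, 80, 42 and 27 times in Sham and 27, 21, 38 and 24 times in TAC, with overlapping groups. Fitted without the filter, their reference-scaled log2 differences were -1.23 (adjusted p = 0.178, edgeR) and -0.21 (adjusted p = 0.724), neither past the threshold. miR-1291 lacks UGAUGA in its first 15 bases, but like miR-3535 it covers bases 1 to 26 of a snoRNA, the 138-base Snora34. With a mean of 1.6 counts it was at 0.519 in the same fit (adjusted p = 0.777, edgeR).

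Entries named without an arm are a wider class, and apart from the 3, 6 of them were tested. 1 was called higher and 0 lower in the reference-scaled fit. The called one was miR-484 at a log2 difference of 0.79 (adjusted p = 0.000694, edgeR), a miRNA whose precursor starts at the transcription start and bypasses Drosha. miR-378d was at 0.76 (adjusted p = 0.0218) with a fold under 1.7. miR-378c (0.60, adjusted p = 0.0799), miR-378b (0.53, adjusted p = 0.235), miR-5099 (-0.09, adjusted p = 0.813) and miR-451a (-0.54, adjusted p = 0.468), an erythroid miRNA cut by Argonaute in place of Dicer, did not pass the test. By miRNA totals 0 were called higher and 1 lower, miR-5099 at -0.99 (adjusted p = 0.0413), where 10.3% of the tested miRNAs were called lower. Neither class holds a tested entry as far below 0 as miR-3535 or miR-6240, or as far above as miR-1983, an ordering that the choice of the 3 entries fixes in part.

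**Figure D5:**
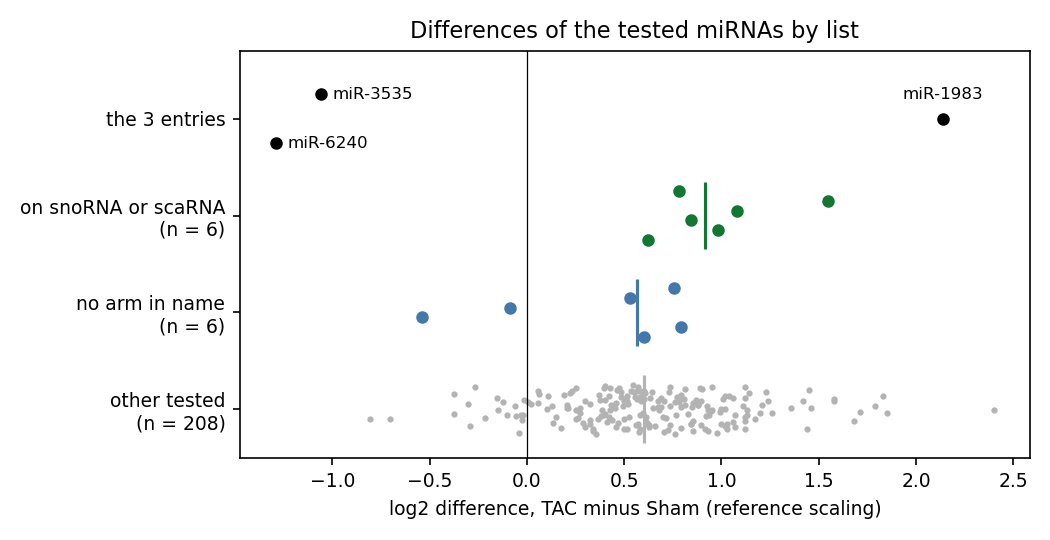
Reference-scaled log2 differences (TAC minus Sham) of the 3 entries, of 6 other tested entries on snoRNA or scaRNA, of 6 other tested entries without an arm in their name and of the remaining tested miRNAs; vertical bars are medians. The entries on snoRNA or scaRNA run from 0.62 to 1.55, between miR-3535 and miR-1983.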

How the data were processed

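Small RNA libraries of cardiomyocytes from 4 Sham and 4 TAC mice were analysed, grouped by their sample labels. For each library the authors deposited whole-number counts per mature miRNA, not normalized. The submitters' processing notes name mm10 and StringTie 1.3.1 without a role; the aligner, the miRNA reference and the handling of tags that match several places are not given in the sources used here. Totals of 4005668 to 7798943 counts per library leave a counting error of at most 14.9% on a single value of the 3 entries. Because it is not known whether a tag had to match the mature sequence alone, tags of a longer RNA, or of a tRNA or snoRNA copy elsewhere, may be among the counts.

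Counts were fitted with edgeR 4.0.16 in R 4.3.3 (quasi-likelihood F test, group as the only term) and p-values were adjusted by Benjamini-Hochberg over the 223 miRNAs averaging above 100 counts. Library sizes were miRNA totals, multiplied in TAC by 0.537, the ratio of miR-126a-3p and miR-19b-3p between the groups. This factor was taken as fixed, so the p-values leave out its uncertainty. A call needed an adjusted p below 0.05 and a fold above 1.7. Alternatives were TMM, miRNA totals, clean tags (all, or those not on a miRNA, from the study's own sequencing totals), a factor per library, DESeq2 1.42.0, other filters and folds, the replicate number as a block, and each library left out. Spread was the SD of log2(count + 0.5), and likeness used log2(CPM + 1). Sequences and tRNA genes came from RefSeq (593 of 697 entries matched) and transcripts from GENCODE vM21, both on GRCm38, the build of mm10; folds came from RNAfold 2.7.2. The fit was tested on simulated counts. The study took each sample from the myocytes of 1 mouse heart, and the labels do not say on which days samples were prepared. The p-values therefore measure only the spread between these samples, each from a different mouse. Besides the 3 entries, the miRNAs named were the 2 scaling references, the neighbours in the order of log2 differences, the tested entries on structural RNA, the most alike miRNAs and the entries without an arm. The entries and lists were chosen with earlier results of these data known.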

Additional observations from a re-analysis of the deposited data

Results flagged for a closer look

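In 3 of 34 groups of 4 libraries examined for 17 miRNAs, 1 library stood farther from the others than Dixon's 95% critical value allows, where chance alone gives about 1 group in 20. miR-6240 was at 398 CPM by miRNA total in Sham 1, against 136 to 163 in the other Sham libraries (ratio 0.896). miR-3068-5p, on a snoRNA, was at 228 CPM in TAC 1, against 122 to 140 in the other TAC libraries (ratio 0.833). miR-484 was at 823 CPM in TAC 1, against 687 to 706 (ratio 0.861). TAC 1 was also the highest TAC library for miR-1983, at 105 CPM, where the gap stayed under the critical value.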

How the results depend on the processing

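The log2 differences of miR-1983, miR-3535 and miR-6240 kept their direction under all the settings tried. Against 2.14, -1.06 and -1.29, they were 1.45, -1.75 and -1.99 with TMM, 1.24, -1.96 and -2.19 with miRNA totals, and 1.53, -1.64 and -1.86 with clean tags; DESeq2's own size factors gave 1.49 and -1.71 for the first pair. With single libraries left out they ranged from 1.84 to 2.35, from -1.25 to -0.86 and from -1.77 to -0.665, the last without Sham 1. Without Sham 1 and TAC 3, the highest of each group for miR-6240 and a setting added after the data were seen, it was -1.14.

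Of all tested miRNAs, 82 were called higher and 2 lower, the latter 2 among the 3 entries chosen for this contrast. With TMM these were 3 and 10, with miRNA totals 1 and 23, with clean tags 5 and 5, and with DESeq2's size factors 5 and 9. Higher calls numbered 32 with clean tags not on a miRNA, 127 without a filter, 43 at a fold above 2 and 142 with no fold, and 59 (without Sham 3) to 106 (without Sham 1) with a library left out; lower calls were then 1 to 2. Of the entries on structural RNA, 5 were called higher, but 0 with TMM, miRNA totals, clean tags or DESeq2's size factors, 1 with clean tags not on a miRNA, 2 at a fold above 2, 8 with a mean above 10 or no filter, and 3 to 6 with a library left out. Of the entries without an arm, 1 was called higher, but 0 with TMM, miRNA totals, clean tags of either kind, DESeq2's size factors or a fold above 2, 2 at a fold above 1.5 or with no fold, 5 with a mean above 10, 6 without a filter, and 0 to 4 with a library left out; the lower calls, 0, became 1 with miRNA totals and with the replicate block. With 1 reference factor per library, 73 of all tested miRNAs were called higher, as were 4 of the entries on structural RNA. miR-3068-3p, at 0.765, then fell under the fold threshold, and miR-3068-5p had an adjusted p of 0.143 (edgeR). Looser filters test more entries. The cause of the other changes was not tested. The log2 difference of miR-3068-5p turned to -0.0653 with TMM, -0.274 with miRNA totals and -0.0323 with DESeq2's size factors, and with miRNA totals those of miR-1839-5p, miR-3068-3p and miR-484 turned to -0.0537, -0.113 and -0.107. Matching either strand or with 1 mismatch gave the same entries on structural RNA.

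The study speaks of 4 pairs of sham and TAC mice, and the labels do not say whether the replicate numbers mark these pairs. The deviations of same-numbered libraries correlated at 0.17, -0.37, 0.31 and -0.22. Those of libraries with different numbers ran from -0.19 to 0.42. Such correlations between single libraries cannot decide whether mice were paired. With the replicate block, 76 were called higher and 3 lower, and the 3 entries were at 2.08, -1.07 and -1.38. Entries with few counts, such as miR-5121, are limited by depth.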

Other observations

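Below the mean of 100 counts lie 13 more entries on structural RNA, fitted without a filter on the reference scale. miR-1843a-3p, the other arm of miR-1843a on Scarna3b, was at a log2 difference of 1.54 (adjusted p = 0.000465, edgeR) with a mean of 82.2 counts. The 2 arms of miR-664, on Snora36b, were at 0.86 (3p, adjusted p = 0.0306) and 0.90 (5p, adjusted p = 0.0471). These values hold the 0.898 shift of the reference scale: per miRNA total the log2 ratio of the group means was -0.0361 for miR-664-3p and 0.00454 for miR-664-5p, with overlapping groups, and 0.65 for miR-1843a-3p, with every TAC library above every Sham library. The other 10 did not pass the threshold, and 6 of the 13 had mean counts under 10. For miR-1843a, miR-1843b, miR-3068, miR-664 and miR-677 both arms are among the 697 entries. Of these, miR-677-3p had 6 counts in Sham 1 and 0 in every other library. miR-1983, miR-3535 and miR-6240 have no second arm among the entries, so the counts cannot show a contrast in arms.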
